A study of Rattus norvegicus with 10 samples.

Results

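The SOX family of transcription factors was examined in JUG2 cells, a line of enteric glial cells (EGC) from rat, in which SOX10 or GFP can be switched on with doxycycline. 9 members were chosen by name, namely Sox10, Sox9 and Sox8 (group E), Sox6, Sox13 and Sox5 (group D), Sox2 (group B1), and Sox4 and Sox11 (group C). All 9 were found among the 23188 transcript clusters of the Clariom S array that are not controls, each with 1 transcript cluster. Sox9 has no symbol in the platform table used here and was named through the paper's table of differentially expressed genes, which holds only genes called there, so the call of Sox9 is not independent evidence of its direction.

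SOX proteins bind DNA through a high mobility group box that recognises short motifs of the type ACAAAG or ACAATG and bends the helix. Group E factors specify neural crest and glia, and SOX10 stays on in enteric glia, Schwann cells, oligodendrocytes and melanocytes. Group D factors carry no activation domain of their own and act with other SOX proteins, while group B1 and group C factors are known for progenitor maintenance and for early neuronal and mesenchymal development.

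4 groups were compared. SOX10 +dox cells carry a doxycycline-responsive Sox10 vector and a transactivator and received 1 µg/ml doxycycline for 48 h. SOX10 -dox cells are the same transduced line without doxycycline. GFP +dox cells carry a GFP vector in place of Sox10, with the same transactivator and the same doxycycline treatment, and GFP -dox cells are that line without doxycycline. All 4 groups were transduced and grown with puromycin, each vector was represented by 1 transduced line, and 8 arrays came from the SOX10 line (4 per group) and 2 from the GFP line (1 per group). Values are the log2 signals that the authors deposited, so a difference of 1 equals 2-fold. Array medians lay between 6.69 and 6.86. Precision is limited by how few arrays there are, and in bulk RNA fewer cells of a type and less RNA per cell cannot be told apart.

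The signal of Sox10, the gene that the vector supplies, ran against the labels of both arrays numbered replicate 1, so these 2 arrays are shown apart and the SOX10 line was compared over replicates 2 to 4. The arrays compared were thus chosen by their Sox10 signal, so the Sox10 values are a description with no test, and the other results hold for that choice of arrays. Markers of cell types were also measured. The mean log2 signal of 9 enteric glial markers, Sox10 among them, lay between 8.59 and 8.80 on SOX10 +dox replicates 2 to 4 and between 6.27 and 6.58 on SOX10 -dox replicates 2 to 4, while the arrays labelled replicate 1 gave 6.46 for SOX10 +dox and 8.58 for SOX10 -dox. This mean holds Sox10, by which the arrays were chosen, so it in part restates that choice. Between SOX10 +dox and SOX10 -dox replicates 2 to 4, 4 of the 8 enteric glial markers beside Sox10 rose (Erbb3, Nes, S100b and Ngfr), and 0 of 7 neuronal, 0 of 6 smooth muscle, 0 of 6 fibroblast, 0 of 6 macrophage and 0 of 6 endothelial or epithelial markers passed the test. Of these 4, S100b and Ngfr did not differ between the SOX10 and GFP lines in their doxycycline effect (limma adjusted p = 0.408 and 0.620). Erbb3 and Nes did (0.00147 and 0.00814), as did 0.384% of all transcript clusters. Among all transcript clusters, 2.26% passed it as higher and 1.24% as lower. With no adjustment (limma p under 0.05), 1 neuronal marker (Tubb3) and 1 macrophage marker (Aif1) were higher, while 1 smooth muscle marker (Tagln), 1 fibroblast marker (Thy1) and Epcam, an epithelial marker, were lower. Such an unadjusted p was seen for 14.8% of all transcript clusters. Epcam had a log2 difference of -0.98 (adjusted p = 0.0272), short of 2-fold. Its log2 signals were dim, at 3.44, 3.53 and 3.21 in SOX10 +dox and 4.46, 4.47 and 4.21 in SOX10 -dox (replicates 2, 3 and 4). The GFP arrays gave 3.62 with and 3.38 without doxycycline. Gfap, an intermediate filament gene of mature glia, had log2 signals of 5.83, 6.30 and 5.44 in SOX10 +dox replicates 2, 3 and 4 and of 5.45, 5.63 and 5.81 in SOX10 -dox replicates 2, 3 and 4. The mean log2 signal of the smooth muscle markers lay between 8.45 and 9.15 on SOX10 +dox replicates 2 to 4 and between 8.88 and 9.58 on SOX10 -dox replicates 2 to 4. Replicate 4 had the highest value in both groups. The part of other cell types in the results below was not tested.

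Of the 8 SOX genes beside Sox10, Sox6 rose in SOX10 +dox cells, Sox9 fell, and 6 did not pass the test (n = 3 arrays per group). Of these 6, Sox13 passed with the replicate number as a block (limma adjusted p = 0.00594). Sox10 was higher in SOX10 +dox and is among the called genes by the choice of arrays. A gene was called at an adjusted p under 0.05 (limma, Benjamini-Hochberg over all transcript clusters) and a difference of at least 2-fold. Under this rule 2.26% of all transcript clusters were called higher and 1.24% lower, 3.5% in all. Over the 9 genes the median log2 difference was -0.02, and over all transcript clusters it was also -0.02. 5 of the 9 (Sox10, Sox6, Sox13, Sox9 and Sox4) had an unadjusted p under 0.05, against 14.8% of all transcript clusters. In the same 5 genes the groups did not overlap, 3 of them higher in SOX10 +dox and 2 lower, where 9.5% of all transcript clusters were higher and 10.5% lower without overlap, 20% in all. Both counts hold Sox10, which the choice of arrays puts there, and Sox9, which was named through the paper's called genes. They can therefore not be read against these shares. In GFP cells 0 of the 9 genes were called, as were 0% of all transcript clusters, with 1 array per group. None of the 9 had an unadjusted p under 0.05 there, against 6.29% of all transcript clusters.

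**Figure D1:**
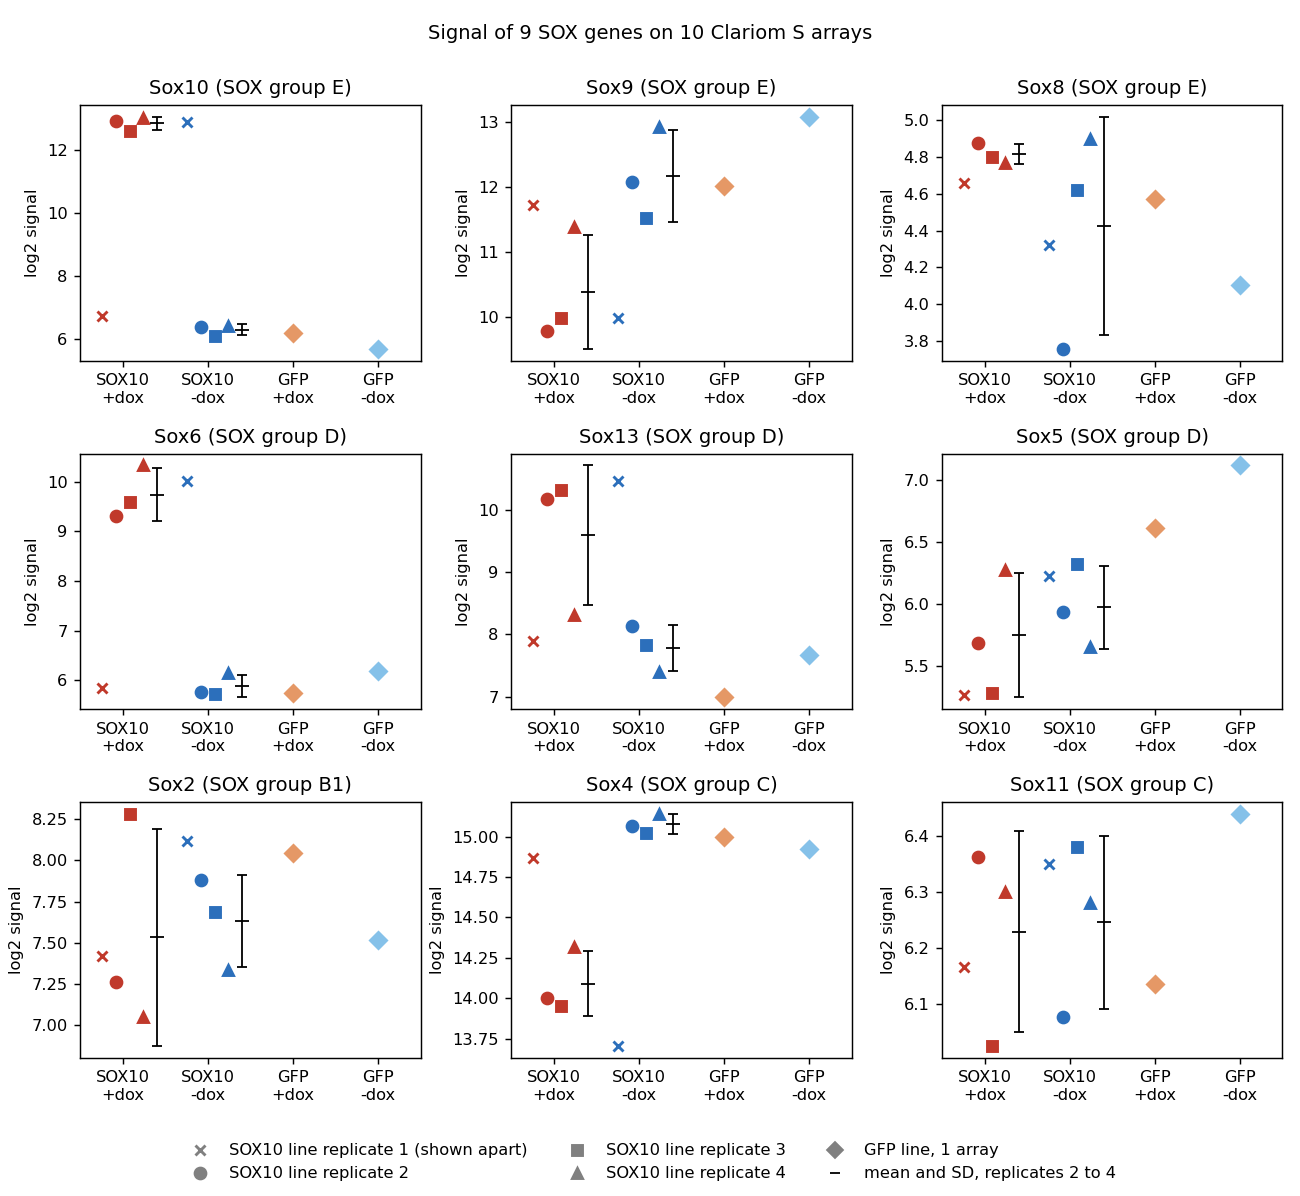
Log2 signal of each SOX gene (y axis, own scale per panel) on the 10 arrays, by group (x axis). Symbols mark the replicate number in the SOX10 line, crosses are the replicate 1 arrays, diamonds are the single GFP arrays, and bars give mean ± SD of replicates 2 to 4. Sox10, Sox6 and Sox13 lie higher and Sox9 and Sox4 lower in SOX10 +dox than in SOX10 -dox replicates 2 to 4, with the crosses on the opposite side.

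Sox10 itself was nearly level within each group. The arrays labelled SOX10 +dox gave log2 signals of 12.93, 12.62 and 13.02 (replicates 2, 3 and 4), while 6.39, 6.11 and 6.43 were measured for SOX10 -dox. The 2 groups were far apart and narrow. The mean was 12.86 ± 0.21 in SOX10 +dox and 6.31 ± 0.17 in SOX10 -dox (SD, n = 3 each), a 93.6-fold difference (log2 difference 6.55 ± 0.22, SE) among arrays chosen by this signal. With all 8 arrays as labelled the log2 difference was 3.37 and was not called (adjusted p = 0.973). The GFP +dox array gave 6.20 and the GFP -dox array 5.70. The doxycycline effect was larger in the SOX10 line than in the GFP line by 6.04 ± 0.44 (SE, log2) over the same arrays. Where the probes of this transcript cluster lie was not analysed here, so RNA of the vector and of the cells' own Sox10 gene cannot be told apart.

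Without doxycycline, Sox10 was 0.61 ± 0.31 (SE, log2) higher in the SOX10 line than in the GFP line. The GFP +dox array, which also lacks the Sox10 vector, gave 6.20. It lay within the range of SOX10 -dox replicates 2 to 4 (6.11 to 6.43). These SOX10 -dox arrays were chosen by their Sox10 signal and the GFP line has 1 array, so this is a description with no test. The 95% interval of the difference ran from -0.08 to 1.30, which covers both no difference and one above 2-fold.

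Sox9, the group E factor that directs gliogenesis and cartilage formation, fell to a log2 signal of 10.38 ± 0.88 in SOX10 +dox, against 12.17 ± 0.71 in SOX10 -dox (SD, n = 3 each). The SOX10 +dox arrays gave 9.78, 9.97 and 11.39 (replicates 2, 3 and 4) and the SOX10 -dox arrays 12.08, 11.52 and 12.92. The groups did not overlap, and in both groups replicate 4 was the highest. Within same-numbered arrays the difference was -2.30, -1.55 and -1.54. The log2 difference was -1.80 ± 0.44 (SE), or 3.47-fold lower, with an adjusted p of 0.0489 just inside the threshold. Left out singly, each array except SOX10 +dox replicate 4 ended the call (adjusted p = 0.0527 to 0.195), and quantile normalization also ended it (adjusted p = 0.0631), while with the replicate number as a block it was 0.00169.

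The GFP arrays differed in the same direction for Sox9. The GFP +dox array gave 12.02 and the GFP -dox array 13.09, a log2 difference of -1.07 that was not called (adjusted p = 0.866). A difference of at least 2-fold between the GFP arrays was seen for 5.93% of all transcript clusters. The doxycycline effects of the SOX10 and GFP lines on Sox9 differed by -0.72 ± 0.88 (SE, log2, adjusted p = 0.878), with a 95% interval of -2.67 to 1.22. A fall of Sox9 particular to the SOX10 line was therefore not shown by these arrays, and an equal effect in both lines was not shown either.

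Sox8, which overlaps in function with Sox10 in glia and neural crest, did not pass the test. Its log2 signals were 4.88, 4.80 and 4.77 in SOX10 +dox replicates 2, 3 and 4 and 3.76, 4.62 and 4.89 in SOX10 -dox replicates 2, 3 and 4. The SOX10 +dox arrays lay within the range of the SOX10 -dox arrays, whose spread came mostly from replicate 2. The log2 difference was 0.39 ± 0.29 (SE, adjusted p = 0.612), and its 95% interval of -0.25 to 1.03 reaches just beyond 2-fold. In GFP cells Sox8 was at 4.57 with and 4.11 without doxycycline.

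Of the 8 members that the vector does not supply, Sox6 showed the largest difference. It is a group D factor that, together with Sox5, holds back the terminal differentiation of oligodendrocytes in mouse and supports Sox9 in cartilage. Sox6 had log2 signals of 9.30, 9.58 and 10.34 in SOX10 +dox replicates 2, 3 and 4, against 5.77, 5.73 and 6.14 in SOX10 -dox replicates 2, 3 and 4. All 3 SOX10 +dox arrays stood more than 3 log2 units above every SOX10 -dox array of replicates 2 to 4. Sox6 averaged 9.74 ± 0.54 in SOX10 +dox and 5.88 ± 0.23 in SOX10 -dox (SD, n = 3 each), which is 14.5-fold higher (log2 difference 3.86 ± 0.29, SE; adjusted p = 2.78e-05). The single GFP arrays were at 5.74 with and 6.19 without doxycycline, and the effect in the SOX10 line exceeded that in the GFP line by 4.31 ± 0.57 (SE, log2, adjusted p = 0.00978). Of the 8 members beside Sox10, only Sox6 had a difference of effects that was called, where 0.358% of all transcript clusters were called higher and 0.0259% lower, 0.384% in all.

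Sox13, the third group D factor, known from lymphocyte and neural development, was higher in SOX10 +dox but missed the threshold. Its log2 signals were 10.17, 10.32 and 8.31 in SOX10 +dox replicates 2, 3 and 4 and 8.13, 7.83 and 7.39 in SOX10 -dox replicates 2, 3 and 4. The groups did not overlap, yet SOX10 +dox replicate 4 lay close to the highest SOX10 -dox array. Within same-numbered arrays Sox13 differed by 2.04, 2.49 and 0.92. The log2 difference was 1.82 ± 0.46 (SE, 3.52-fold, adjusted p = 0.0553). Without SOX10 +dox replicate 4 it was 2.46 (adjusted p = 6.17e-04), and with the replicate number as a block Sox13 was called (adjusted p = 0.00594). Left out singly, each other array raised the adjusted p (0.0983 to 0.218). In GFP cells Sox13 was at 6.99 with and 7.67 without doxycycline, and the effects in the SOX10 and GFP lines differed by 2.50 ± 0.92 (SE, log2), which did not pass the test (adjusted p = 0.434). Without SOX10 +dox replicate 4 that difference was 3.15 (adjusted p = 0.0198). Left out singly, each other array left it uncalled (2.14 to 2.67).

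Sox5, the closest relative of Sox6, was measured at log2 signals of 5.68, 5.28 and 6.27 in SOX10 +dox replicates 2, 3 and 4 and of 5.93, 6.32 and 5.65 in SOX10 -dox replicates 2, 3 and 4. The groups overlapped and the same-numbered differences had both signs (-0.25, -1.04 and 0.62). The log2 difference of -0.22 ± 0.29 (SE, adjusted p = 0.805) had a 95% interval of -0.86 to 0.42, whereas that of Sox6 ran from 3.23 to 4.49. The GFP +dox array (6.61) and the GFP -dox array (7.12) lay above each of the 8 SOX10 arrays. Between the untreated lines, the log2 difference of Sox5, SOX10 -dox minus GFP -dox, was -1.15 ± 0.41 (SE). It did not pass the test (adjusted p = 1.00, unadjusted p = 0.0176 from limma), with 3.32% of all transcript clusters at an unadjusted p under 0.05 and 0% called, and with 1 array per group the GFP line has no spread of its own.

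Because Sox6 and Sox13 were the group D genes with higher signals, the 250 bases before their start sites in RefSeq (build GRCr8) were searched for ACAAAG and ACAATG on both strands. Matches are in capitals, and each run is written 5′ to 3′ along the gene. 4 of the 9 members are in the promoter table. The start listed for Sox6 is not the outermost start of that gene in the gene table.
Sox6, chr1:179665372-179665621, minus strand: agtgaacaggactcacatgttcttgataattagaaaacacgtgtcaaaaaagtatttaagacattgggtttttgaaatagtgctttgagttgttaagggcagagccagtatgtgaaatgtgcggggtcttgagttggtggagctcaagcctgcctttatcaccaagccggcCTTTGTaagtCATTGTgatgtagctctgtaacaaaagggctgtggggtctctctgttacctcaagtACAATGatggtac
Sox13, chr13:47427573-47427822, minus strand: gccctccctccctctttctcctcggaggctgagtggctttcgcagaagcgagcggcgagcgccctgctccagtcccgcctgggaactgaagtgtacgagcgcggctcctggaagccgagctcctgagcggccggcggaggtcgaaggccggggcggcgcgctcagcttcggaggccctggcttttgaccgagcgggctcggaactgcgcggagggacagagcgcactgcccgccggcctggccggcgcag
The Sox6 window holds 3 matches, with leftmost bases at positions -79, -69 and -13 from the start. Sox13 has 0 matches in this window, as have Sox2 and Sox11, whose signals did not pass the test. Of 33469 promoters of this length, 25.3% hold at least 1 match, so a match is common and describes the letters only.

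Sox2, the group B1 factor of neural stem and progenitor cells, overlapped between the groups. Its log2 signals were 7.26, 8.28 and 7.05 in SOX10 +dox replicates 2, 3 and 4 and 7.88, 7.69 and 7.33 in SOX10 -dox replicates 2, 3 and 4. SOX10 +dox replicate 3 was the highest of the 10 arrays and replicate 4 of the same group the lowest. The log2 difference of -0.10 ± 0.32 (SE, adjusted p = 0.933) had a 95% interval of -0.81 to 0.60, so a change of 2-fold lay outside it. On the GFP arrays Sox2 was at 8.04 with and 7.52 without doxycycline.

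Sox4, a group C factor whose prolonged expression delays myelination by Schwann cells in mouse, was lower in SOX10 +dox by just under 2-fold. Its log2 signals were 14.00, 13.95 and 14.32 in SOX10 +dox replicates 2, 3 and 4, against 15.07, 15.02 and 15.14 in SOX10 -dox replicates 2, 3 and 4. The groups did not overlap and the same-numbered differences were close to each other at -1.07, -1.07 and -0.82. Sox4 averaged 14.09 ± 0.20 in SOX10 +dox and 15.08 ± 0.06 in SOX10 -dox (SD, n = 3 each). The log2 difference of -0.99 ± 0.21 (SE, adjusted p = 0.0260) passed the p threshold but was 1.98-fold, short of 2-fold. It exceeded 2-fold and was called without SOX10 +dox replicate 4 (-1.10), with array weights (-1.03) and with quantile normalization (-1.02). Left out singly, each other array put the adjusted p above 0.05 (0.0712 to 0.117).

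In GFP cells Sox4 was at 14.99 with and 14.93 without doxycycline. The effects of doxycycline in the SOX10 and GFP lines differed by -1.05 ± 0.43 (SE, log2), which did not pass the test (adjusted p = 0.483, unadjusted p = 0.0311 from limma). An unadjusted p under 0.05 for this difference was seen for 9.04% of all transcript clusters.

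Sox11, the group C relative of Sox4 that is known from immature neurons, differed by -0.02 ± 0.22 (SE, log2, adjusted p = 0.986), with a 95% interval of -0.49 to 0.46. Its log2 signals were 6.36, 6.02 and 6.30 in SOX10 +dox replicates 2, 3 and 4 and 6.08, 6.38 and 6.28 in SOX10 -dox replicates 2, 3 and 4, and the GFP arrays gave 6.14 with and 6.44 without doxycycline. The 10 arrays ran from 6.02 to 6.44, the narrowest range of the 9 genes.

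**Figure D2:**
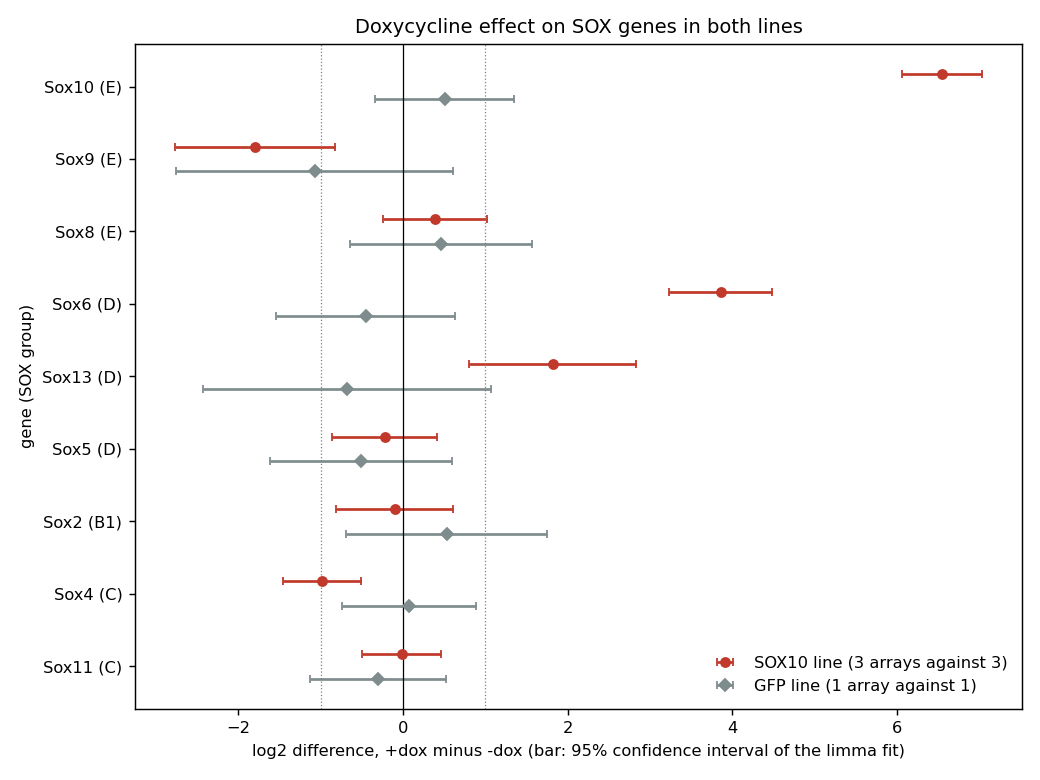
Log2 difference of each SOX gene between cells with and without doxycycline (x axis) in the SOX10 line (circles, replicates 2 to 4, 3 arrays against 3) and in the GFP line (diamonds, 1 array against 1). Bars are 95% confidence intervals of the limma fit and dotted lines mark 2-fold. The intervals of Sox10 and Sox6 in the SOX10 line lie apart from those in the GFP line, while those of Sox9 overlap.

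On the replicate 1 arrays, the 5 genes whose groups did not overlap in replicates 2 to 4 had differences of the opposite sign. The array labelled SOX10 +dox replicate 1 gave log2 signals of 6.74 for Sox10, 5.83 for Sox6, 7.90 for Sox13, 11.73 for Sox9 and 14.86 for Sox4. The array labelled SOX10 -dox replicate 1 gave 12.90 for Sox10, 10.02 for Sox6, 10.47 for Sox13, 9.97 for Sox9 and 13.71 for Sox4. On the array labelled SOX10 -dox replicate 1, Sox10, Sox6 and Sox9 lay within the range of SOX10 +dox replicates 2 to 4, with Sox13 above and Sox4 below that range. On the array labelled SOX10 +dox replicate 1, Sox6, Sox13 and Sox9 lay within the range of SOX10 -dox replicates 2 to 4, with Sox10 above and Sox4 below it.

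The labelled differences of replicate 1 were -6.16 for Sox10, -4.19 for Sox6, -2.57 for Sox13, 1.76 for Sox9 and 1.16 for Sox4. For Sox8, Sox5, Sox2 and Sox11, whose groups overlapped in replicates 2 to 4, they were 0.34, -0.96, -0.70 and -0.18. With all 8 arrays as labelled, 0 of the 9 genes were called, with log2 differences of 3.37 for Sox10, 1.85 for Sox6, 0.72 for Sox13, -0.91 for Sox9 and -0.45 for Sox4 (adjusted p = 0.973 for each, n = 4 per group). What the replicate 1 arrays hold was not tested, and the directions above for replicates 2 to 4 follow their labels.

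**Figure D3:**
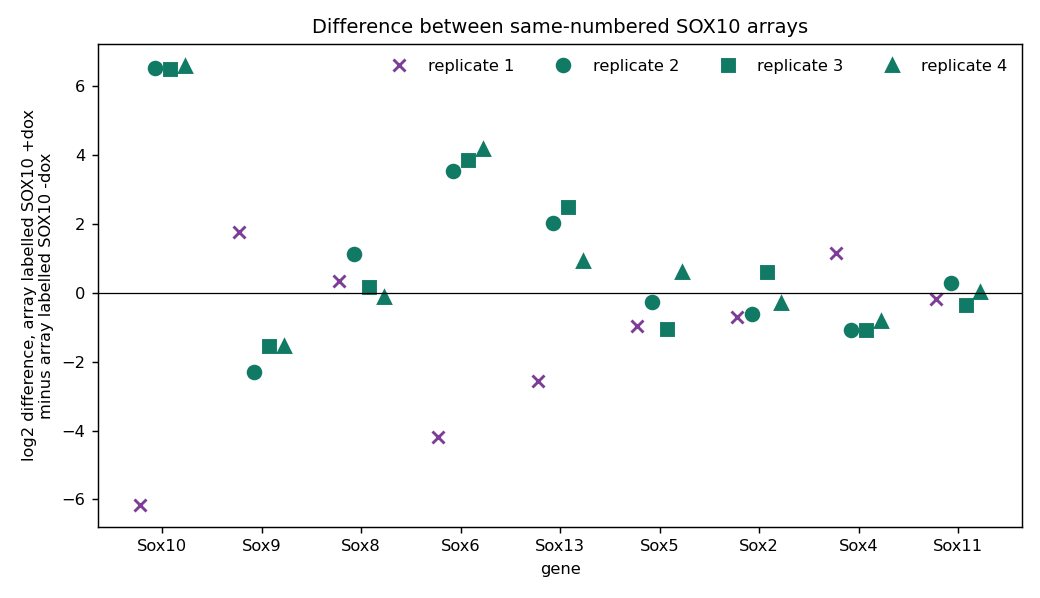
Difference in log2 signal (y axis) between the array labelled SOX10 +dox and the array labelled SOX10 -dox of the same replicate number, for each SOX gene (x axis). Green symbols are replicates 2 to 4 and purple crosses replicate 1. The crosses of Sox10, Sox9, Sox6, Sox13 and Sox4 lie on the other side of 0 from the green symbols.

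SOX10 +dox replicate 4 had the highest Sox6 (10.34), Sox9 (11.39) and Sox4 (14.32) signals of replicates 2 to 4 in its group and the lowest Sox13 signal (8.31). Leaving out replicate 4 of both groups, an alternative chosen after seeing the data, gave 3 members called higher (Sox10, Sox6 and Sox13) and 2 called lower (Sox9 and Sox4).

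Of the further SOX genes, 5 of 11 listed have a platform symbol and 0 of these 5 passed the test (median log2 difference 0.13), where 3.5% of all transcript clusters were called. Sox12, the third group C gene, gave 9.36, 9.92 and 9.62 in SOX10 +dox replicates 2, 3 and 4 and 10.36, 10.29 and 9.99 in SOX10 -dox replicates 2, 3 and 4. All 3 SOX10 +dox arrays were lower, as in 10.5% of all transcript clusters, with 20% free of overlap in either direction. The log2 difference of Sox12 was -0.58 ± 0.23 (SE, adjusted p = 0.267). Sox14 (group B2) and Sox7, Sox17 and Sox18 (group F, of endothelium and endoderm) had log2 differences from 0.04 (Sox18) to 0.45 (Sox14).

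Of 16 measured transcription factors that act with SOX10 in glia and melanocytes, 2 rose, 0 fell and 14 did not pass the test, where 2.26% of all transcript clusters were called higher (median log2 difference 0.10, and -0.02 over all transcript clusters). Egr2, the partner of SOX10 in myelinating Schwann cells, had log2 signals of 11.92, 11.88 and 10.67 in SOX10 +dox replicates 2, 3 and 4, against 7.35, 7.76 and 8.17 in SOX10 -dox replicates 2, 3 and 4. Zeb2, a zinc finger factor of Schwann cell maturation and enteric nervous system development, was at 15.53, 15.31 and 15.56 in SOX10 +dox and at 14.35, 14.09 and 14.90 in SOX10 -dox. The log2 difference of Zeb2 was 1.02 ± 0.25 (SE, adjusted p = 0.0491), just inside both thresholds. Its call was lost with quantile normalization (adjusted p = 0.0543) and without SOX10 +dox replicate 2, 3 or 4 or SOX10 -dox replicate 2 or 3 (0.0957 to 0.207). Neither Egr2 nor Zeb2 passed the test of the difference of effects between the SOX10 and GFP lines (adjusted p = 0.113 for Egr2 and 0.433 for Zeb2). The oligodendrocyte factors Olig1, Olig2 and Nkx2-2 had log2 differences of -0.08, 0.19 and -0.13, and Myrf, the regulator of central myelin genes, of 0.69 ± 0.34 (SE, adjusted p = 0.392). Olig1 (log2 signals of 3.8 to 4.6) and Olig2 (4.1 to 4.8) lay below every array median. For these dim genes, unchanged RNA and RNA too low to detect cannot be told apart.

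Of 20 measured genes with SOX10 binding described in glia or melanocytes, 12 rose, 0 fell and 8 did not pass the test (median log2 difference 2.16, against -0.02 over all transcript clusters). The share of all transcript clusters called higher was 2.26%. This list was drawn up with earlier results of these arrays known, and in part from genes the paper names, so its count is not independent evidence of direction. Of the 12 that rose, Mbp, S100b, Mobp, Aspa and Cntf did not pass the test of the difference of effects between the SOX10 and GFP lines (adjusted p = 0.0651 to 0.506). Apod, Enpp2, Erbb3 and Dusp15 had the smallest adjusted p. Dusp15, a phosphatase gene of oligodendrocytes, had log2 signals of 13.18, 13.47 and 12.64 in SOX10 +dox replicates 2, 3 and 4, against 8.59, 8.65 and 8.97 in SOX10 -dox replicates 2, 3 and 4. Members that did not pass were Gjb1, Mag, Ret, Tyr, Pmp22, Nfatc4, Cspg4 and Pdgfra, with log2 differences from -0.63 (Pdgfra) to 0.90 (Mag).

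Genes listed for the cartilage programme of Sox9 did not pass the test, with 0 of 11 measured called and 0 at a limma p under 0.05 with no adjustment (median log2 difference -0.03). Comp, Hapln1, Matn1, Acan and Col9a1 lay below the lowest array median (6.69) on every array, where a fall may not show. The other measured genes of this list, Runx2 among them, lay above the highest array median (6.86). The shares over all transcript clusters were 3.5% called and 14.8% at such an unadjusted p. The cartilage genes included Col2a1, the main cartilage collagen and a direct target of SOX9 with Sox5 and Sox6 (-0.22 ± 0.25, SE), and Acan, the cartilage proteoglycan (-0.12 ± 0.22, SE). Of 10 measured genes of progenitors in which Sox2 is active, 1 rose and 1 fell, where 2.26% of all transcript clusters were called higher and 1.24% lower. Msi1, an RNA-binding protein of neural progenitors, gave 7.25, 6.88 and 7.31 in SOX10 +dox replicates 2, 3 and 4, against 5.34, 6.0 and 5.88 in SOX10 -dox replicates 2, 3 and 4 (log2 difference 1.41 ± 0.25, SE; adjusted p = 0.00895).

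Klf4, a zinc finger factor used with Sox2 in reprogramming, gave 6.42, 6.42 and 6.25 in SOX10 +dox replicates 2, 3 and 4, against 7.56, 7.50 and 7.04 in SOX10 -dox replicates 2, 3 and 4. It fell by 1.01 ± 0.23 (SE, log2, adjusted p = 0.0324), a call lost without SOX10 +dox replicate 2, 3 or 4 or SOX10 -dox replicate 2 or 3 (adjusted p = 0.0668 to 0.140) and with quantile normalization (-0.97, short of 2-fold). The GFP arrays differed by 0.52 for Msi1 and -0.60 for Klf4, and neither gene passed the test of the difference of effects (adjusted p = 0.639 for Msi1 and 0.859 for Klf4). Of 11 measured genes linked to Sox4 and Sox11 in neurons and progenitors, 0 were called, where 3.5% of all transcript clusters were called. With no adjustment (limma p under 0.05), Dcx, Tubb3 and Stmn2 were higher and Tead2 and Ezh2 lower, against 14.8% of all transcript clusters. Tead2, a described target of SOX4 and SOX11 in mouse embryos, had a log2 difference of -0.88 ± 0.26 (SE, adjusted p = 0.112), and Dcx, a microtubule protein of young neurons, of 0.99 ± 0.23 (SE, adjusted p = 0.0349, below 2-fold).

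**Figure D4:**
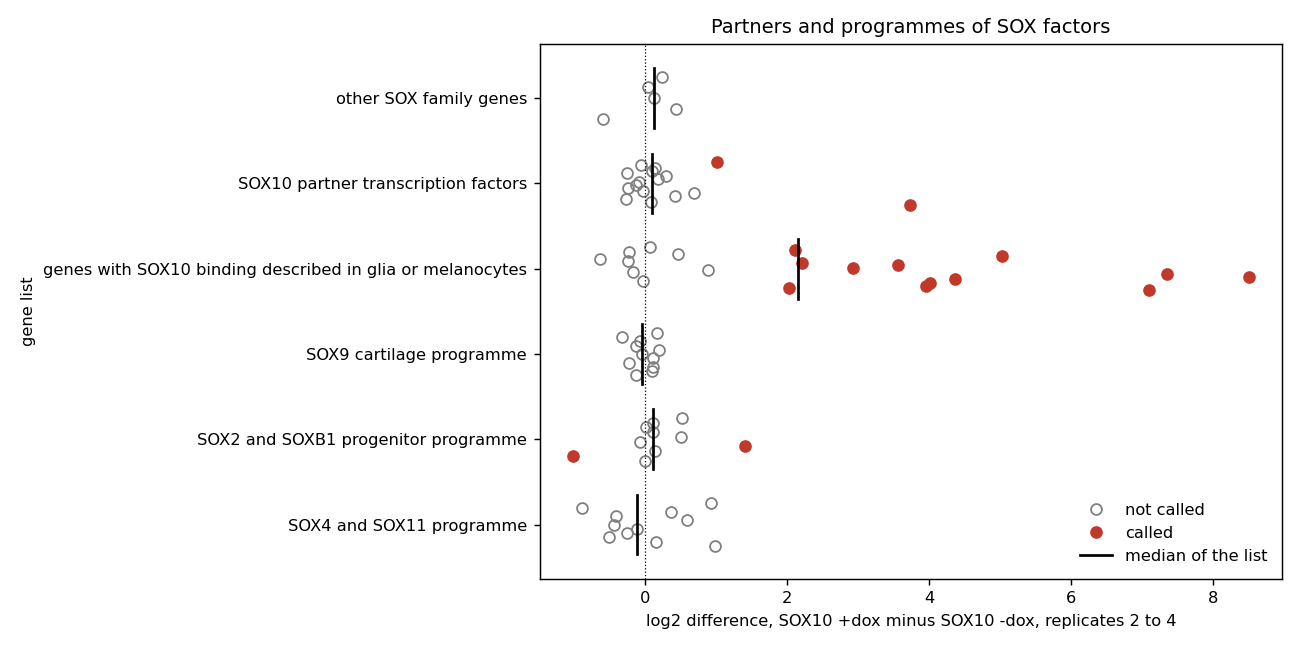
Log2 difference between SOX10 +dox and SOX10 -dox, replicates 2 to 4 (x axis), of the measured genes of 6 lists (y axis). Filled circles passed the test, open circles did not, and bars are the list medians. Called genes are found mostly among those with described SOX10 binding (12 of 20), with 2 of 16 partner factors, Msi1 and Klf4 beside them. Among all transcript clusters, 2.26% were called higher and 1.24% lower.

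Over the 10 arrays, the genes whose centred log2 profiles lay closest to that of Sox6 were Sgk1, Vamp1 and Tnfrsf19, with root mean square differences of 0.42, 0.43 and 0.45, against a median of 1.98 over all named transcript clusters. For Sox9 they were Slc2a3, Ceacam20 and Adamts10, with 0.33, 0.34 and 0.35 against a median of 1.16. These distances follow the same arrays, replicate 1 included, and carry no test.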

How the data were processed

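Total RNA of JUG2 cells was labelled with the GeneChip WT Plus kit and hybridized to Clariom S arrays, per the labels and the study's methods. The authors processed the arrays with the array maker's analysis console and deposited a log2 value for every probe set on each array. Summarization and normalization are not given in the sources used here. 1646 control probe sets of 24834 were left out. A list gene measured more than once was represented by its brightest transcript cluster.

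The 4 groups were fitted in 1 linear model (limma 3.58.1, R 4.3.3) over SOX10 replicates 2 to 4 and the GFP arrays, which were assumed to vary like the SOX10 arrays. P-values were adjusted over all 23188 transcript clusters. Alternatives included the replicate block, quantile normalization, array weights, other thresholds and arrays left out. The fit was tested on simulated data. Within-group deviations of arrays that share a number correlated at 0.19, 0.15 and 0.41 (replicates 2, 3 and 4), all over the criterion of 0.1. SOX10 +dox replicate 3 with SOX10 -dox replicate 2 (0.17) and SOX10 +dox replicate 2 with SOX10 -dox replicate 3 (0.13) also exceeded it. Replicate 4 correlated negatively with the other numbers (-0.28 to -0.22). The criterion therefore cannot show that the numbers pair replicates 2 and 3. The reported fit has no block, as the study's methods name none, and blocked values are given where they change a call. The study's methods name 4 independent experiments as the source of the RNA. Whether arrays of 1 number share an experiment or a culture is not stated, and p-values measure the spread between these arrays only.

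Named genes were the 9 members, the called genes of each list (at most 4 by adjusted p) and the 3 closest profiles of Sox6 and Sox9. Gfap, Epcam, Dcx, Tead2, Sox12 and other uncalled genes were named after their values were seen. The members and lists were chosen with earlier results of these data known. Promoter sequences are from RefSeq (GRCr8).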

Additional observations from a re-analysis of the deposited data

Results flagged for a closer look

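For 4 of 18 sets of 4 arrays (9 genes in each labelled SOX10 group), 1 replicate 1 array stood far from the others by Dixon's criterion, which chance alone meets in about 1 of 20 sets. 2 of the 4 are the Sox10 values for which these arrays were set apart, so they restate that observation, and the sets share the same arrays, so the 4 cannot be read against that rate. For Sox10, the array labelled SOX10 +dox replicate 1 was the lowest of its group, with a gap of 0.936 of the whole range, and the array labelled SOX10 -dox replicate 1 the highest of its group (0.954). For Sox6 the array labelled SOX10 -dox replicate 1 was the highest (0.903) and for Sox4 the lowest (0.916) of its group. The doxycycline effect on Sox10 was higher in the SOX10 line than in the GFP line by 6.04 and that on Sox6 by 4.31 on the log2 scale. The difference of Sox6 passed the limma test, and that of Sox10 follows from the choice of arrays.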

How the results depend on the processing

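Sox10 and Sox6 were called in 14 of 15 alternatives, the exception being all 8 SOX10 arrays as labelled, which gave 0 members higher and 0 lower, 0 for the difference of effects, and 0 and 0 transcript clusters (525 higher and 287 lower as reported). The other 14 rest on arrays chosen by their Sox10 signal. At the methods' adjusted p under 0.01, 0 members were lower, with 308 transcript clusters higher and 113 lower. The lower members were 2 with array weights, with no minimum fold and without replicate 4 of both groups, a choice made after seeing the data. With 1 array left out at a time, members lower ranged from 0 to 2 and transcript clusters from 333 to 639 higher and from 140 to 324 lower (352 without replicate 4 of both groups). The cause was not tested. Sox9 was called in 7 of 15 alternatives (log2 differences -2.30 to -0.91), Sox13 in 7 (0.72 to 2.46) and Sox4 in 5 (-1.10 to -0.45). Zeb2 (0.35 to 1.25) and Klf4 (-1.17 to -0.50) were each called in 7, and Egr2, Msi1, Apod, Enpp2, Erbb3 and Dusp15 each in 14. The difference of effects on Sox13 was called without SOX10 +dox replicate 4 (3.15) and without replicate 4 of both groups (2.95). With the replicate block, 3 members were higher and 1 lower, and of the members only the call of Sox13 changed. Of 388 values of single genes, 14 changed sign, each uncalled on either side. Sox8 was too dim to pass the filter on low signals and has no value there, and each member has 1 transcript cluster, so no other could be tried. Signal over background was not analysed here.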
